A study of Homo sapiens with 5 samples.

Results

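Of the 13499 peaks called for PRDM11 antibody 1 against IgG in U2932 cells, 4081 overlapped neither a peak of PRDM11 antibody 2 nor a peak of RNA polymerase II by even 1 bp. These 4081 intervals, 30.2% of the list, are called unmatched antibody 1 peaks here. They were chosen by their lack of overlap with both other lists called against IgG, so that lack is a description and not a result. The remaining 9418 antibody 1 peaks are called matched. Of these, 3043 lay in RNA polymerase II peaks only, 1972 in antibody 2 peaks only and 4403 in peaks of both.

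The study precipitated chromatin of U2932, an established human lymphoma cell line derived from a diffuse large B-cell lymphoma and grown without treatment. It used rabbit polyclonal anti-PRDM11 antibody 1 or antibody 2 (both non-commercial), an antibody against RNA polymerase II, rabbit IgG, or no antibody (input). There was 1 library for each of these 5 conditions. Values therefore carry no replicate error, and no test between conditions was made. Bracketed ranges are exact (Clopper-Pearson) 95% binomial intervals over peaks, which take each peak as an independent draw and describe counting error alone. The deposited lists hold positions on the human build hg19 without read counts, so sequencing depth is unknown. Genes and sequences were not assigned to the peaks.

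PRDM11 belongs to the PRDM family, whose members carry a PR domain related to the SET domain of lysine methyltransferases and act in transcriptional regulation. Several members are known in lymphocytes, PRDM1 (Blimp-1) as a driver of plasma cell differentiation. Polyclonal antibodies are mixtures that bind several sites on their antigen, and separate antibodies to 1 protein are commonly compared in ChIP-seq to see which sites each recovers. RNA polymerase II, which makes messenger RNA, typically gives its strongest ChIP-seq signal near gene starts and along highly transcribed genes.

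The lists that define a match differed greatly in extent. The antibody 2 list held 465837 peaks covering 64.8 Mb, with a median width of 123 bp, and the RNA polymerase II list held 50161 peaks covering 17.9 Mb, with a median width of 246 bp. The antibody 1 list covered 3.56 Mb in all, and its unmatched peaks covered 616 kb. A single IgG library served as the control of all 3 lists, and its part in their overlaps was not tested.

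Unmatched peaks were short. Their median width was 128 bp, with an upper quartile of 160 bp, and 1892 of the 4081 (46.4%, 44.8% to 47.9%) had exactly the minimum width of the list, 123 bp. Matched peaks had a median width of 231 bp, and 861 of 9418 (9.14%, 8.57% to 9.74%) had the minimum width. Over all antibody 1 peaks the share at the minimum was 20.4%. A wider interval is more likely to touch another list, so width is tied to the rule and its difference between the classes is given without a test. Among the matched classes, the median was 181 bp for peaks in RNA polymerase II peaks only, 204 bp for peaks in antibody 2 peaks only and 321 bp for peaks in both.

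**Figure D1:**
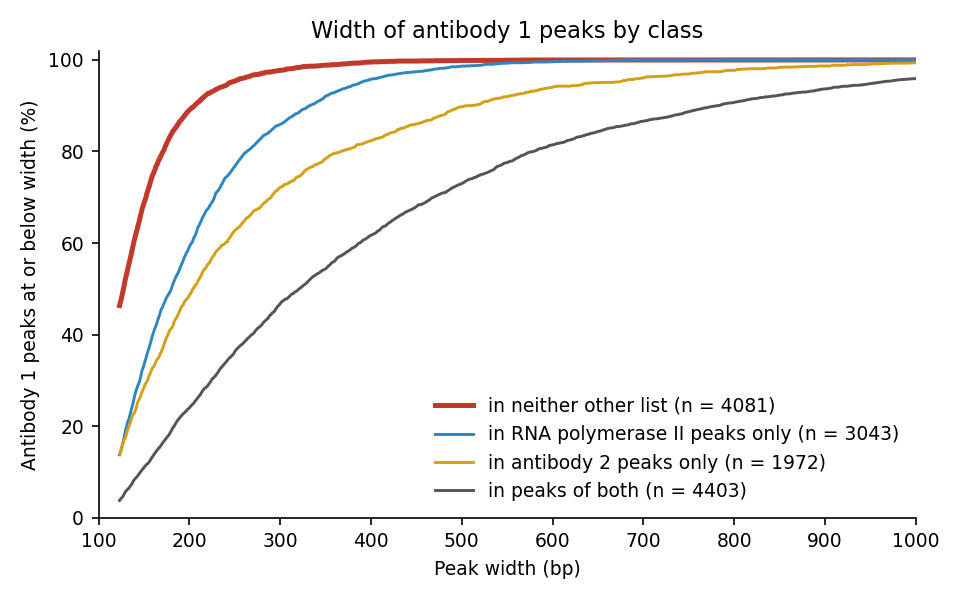
Cumulative share (%) of antibody 1 peaks at or below each width (bp) for the 4 classes; the lines are single lists without replicates, and the axis stops at 1000 bp. The curve of the 4081 unmatched peaks starts at 46.4% at 123 bp and lies above those of the 3 matched classes, whose medians are 181 bp, 204 bp and 321 bp.

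Seen by width, the unmatched class made up 68.7% (67.0% to 70.5%) of the 2753 antibody 1 peaks of 123 bp. Its share was 43.2% at 124 to 149 bp (2057 peaks), 32.4% at 150 to 199 bp (2609 peaks) and 13.6% at 200 to 299 bp (2648 peaks). Of the 3432 peaks of 300 bp or more, 94 were unmatched, or 2.74% (2.22% to 3.34%). Unmatched peaks of 200 bp or more numbered 454, those of 400 bp or more 19 and those of 500 bp or more 5. None of the unmatched peaks reached 1000 bp, against 192 of the matched peaks.

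The 5 widest unmatched peaks were found in different surroundings. The widest lay on chromosome 20 at 62715213 to 62715840 (628 bp), 89 bp from an antibody 2 peak and 3990 bp from an RNA polymerase II peak. Another unmatched peak lay 764 bp from it. The peak on chromosome 3 at 43328504 to 43329070 (567 bp) sat 156 bp from antibody 2, 342 bp from RNA polymerase II and 323 bp from a matched antibody 1 peak. These 2 regions thus had a near miss with another list. The peak on chromosome 3 at 89156510 to 89157067 (558 bp) was, in the lists called against IgG, 944082 bp from RNA polymerase II, 957367 bp from a matched antibody 1 peak and 2704 bp from antibody 2. Against input it overlapped peaks of both RNA polymerase II and antibody 2. Its closest antibody 1 peak, at 6571 bp, was also unmatched. The peak on chromosome 2 at 239149530 to 239150076 (547 bp) lay 454 bp from RNA polymerase II and 905 bp from antibody 2, with no other antibody 1 peak within 50 kb. It overlapped an RNA polymerase II peak called against input. The peak on chromosome 6 at 79620278 to 79620783 (506 bp) lay 42460 bp from RNA polymerase II and 2801 bp from antibody 2. Each of the 5 was found again when antibody 1 was called against input, as peaks of 625 bp, 601 bp, 777 bp, 360 bp and 459 bp. At 300 bp or more this held for 91 of 94 unmatched peaks and 99.5% of all antibody 1 peaks. The peak on chromosome 3 at 89156510 lay in a stretch dense in calls against input, described below.

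Calls against the input library show how far these peaks hold with another control for the same ChIP reads. The antibody 1 list called against input was longer, with 54038 peaks covering 15.6 Mb, against 13499 peaks covering 3.56 Mb. Of the 4081 unmatched peaks, 2437 overlapped a peak of the antibody 1 list called against input, a share of 59.7% (58.2% to 61.2%). Among all antibody 1 peaks the share was 81.3%. It was 85.3% (84.0% to 86.5%) for peaks in RNA polymerase II peaks only, 87.0% (85.5% to 88.5%) for peaks in antibody 2 peaks only and 95.9% (95.3% to 96.5%) for peaks in both. The unmatched peaks thus had the lowest share of the 4 classes, and they were 1644 of the 2527 antibody 1 peaks not found against input. At positions 50 kb to either side of the unmatched peaks the share was 1.43%.

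At equal width the unmatched peaks were still found less often below 300 bp, by intervals that stood apart. Among peaks of 123 bp, 46.3% (44.0% to 48.6%) of the unmatched and 60.4% (57.0% to 63.7%) of the matched peaks were found against input. At 124 to 149 bp, 60.9% (57.6% to 64.1%) of unmatched and 79.3% (76.8% to 81.6%) of matched peaks were found. For 150 to 199 bp the shares were 72.3% (69.2% to 75.3%) of unmatched and 88.7% (87.1% to 90.1%) of matched peaks, and for 200 to 299 bp 88.1% (84.2% to 91.2%) of unmatched and 96.2% (95.4% to 97.0%) of matched peaks. At 300 bp or more, 91 of 94 unmatched peaks (96.8%, 91.0% to 99.3%) and 99.6% (99.3% to 99.8%) of matched peaks were found, and these intervals met. Against the peaks in both alone (99.8%, 99.5% to 99.9%) the interval of the unmatched peaks stood apart. Weighting the matched peaks to the widths of the unmatched peaks, over 13 width classes, gave them a share of 74.3% in place of 90.6%, which was 14.5 percentage points above the unmatched peaks.

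**Figure D2:**
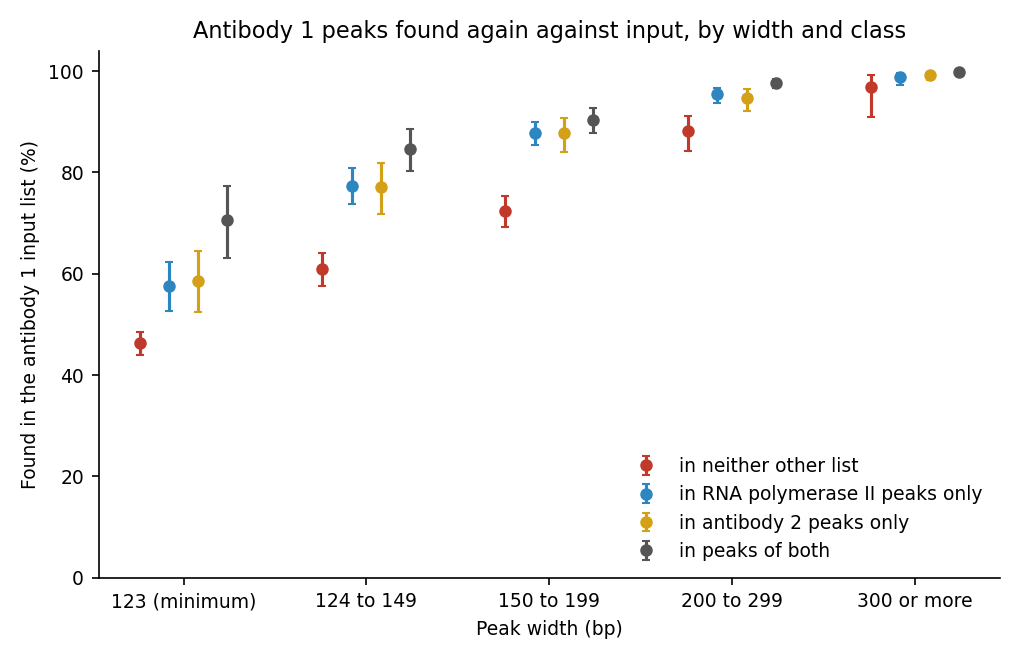
Share (%) of antibody 1 peaks that overlap a peak of the antibody 1 list called against input, by peak width (bp) and class; points are shares and bars exact 95% intervals over peaks. In each of the 4 width classes below 300 bp the unmatched peaks have the lowest share, 46.3% at 123 bp and 88.1% at 200 to 299 bp; at 300 bp or more their interval meets those of the RNA polymerase II only and antibody 2 only classes but not that of the peaks in both (99.5% to 99.9%).

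Where an unmatched peak was found again, the calls coincided closely. Of the 2437, 1781 (73.1%) were covered over their full length, 2414 (99.1%) over at least 50%, and 400 (16.4%) had the same start and end. The 2419 peaks called against input that touched them had a median width of 168 bp, while the unmatched peaks found again had a median of 139 bp. For 203 of the 2437 (8.33%) the peak called against input was long enough to reach an antibody 2 or RNA polymerase II peak called against IgG. Unmatched peaks not found against input had a median width of 123 bp.

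The other lists called against input rarely filled in a match. Of the unmatched peaks, 123 (3.01%, 2.51% to 3.59%) overlapped antibody 2 called against input, against 48.2% of all antibody 1 peaks. A further comparison with RNA polymerase II called against input gave 257 (6.30%, 5.57% to 7.09%), against 57.8% of all antibody 1 peaks. Both lists come from the same ChIP reads as the lists in the rule, so low shares follow in part from it. A closer reference is the same intervals moved by 50 kb, limited to the 7528 that also avoided both lists in the rule. There the shares were 0.956% for antibody 2 and 1.37% for RNA polymerase II, so that the unmatched peaks stood 3.15 and 4.60 times as high.

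Over all 6 lists, the unmatched peaks fell mainly into a set that recurred against input and a set seen once. A set of 2125 (52.1%, 50.5% to 53.6%) was found for antibody 1 against both controls and in no list of the other antibodies. Another 1635 (40.1%, 38.6% to 41.6%) appeared in none of the other 5 lists, and 1013 of these were 123 bp wide. The recurring set had a median width of 136 bp, with 824 peaks at 123 bp and 311 peaks of 200 bp or more. Of its members, 907 lay over 1000 bp from both other lists called against IgG, and 71 of those were also 200 bp or wider.

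Although they avoided RNA polymerase II peaks by rule, unmatched peaks lay just beside one more often than the moved intervals. The gap to the nearest RNA polymerase II peak was at most 1000 bp for 733 of 4081 (18.0%, 16.8% to 19.2%); for all antibody 1 peaks, overlaps included, the share was 65.9%. Peaks in antibody 2 peaks only, which also avoid RNA polymerase II, had a share of 36.5% (34.3% to 38.6%). The moved intervals that avoided both lists had 3.75% (3.33% to 4.20%). The excess was local. Gaps under 100 bp were 8.93 times as frequent in unmatched peaks as in moved intervals, those of 100 to 299 bp 6.36 times, those of 300 to 999 bp 3.41 times and those of 1000 to 1999 bp 1.28 times. From 2000 to 4999 bp the ratio was 0.917.

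A larger number of unmatched peaks lay far from RNA polymerase II, as did the moved intervals that avoided both lists. The median gap was 30721 bp for unmatched peaks and 48333 bp for these intervals. Moving a peak beside RNA polymerase II by 50 kb places it about 50 kb from that peak. Between gaps of 44668 bp and 50119 bp the share of moved intervals rose from 47.70% to 53.59%. Their median and their share within 50 kb are thus shaped by the move. RNA polymerase II was within 50 kb of 57.6% (56.1% to 59.1%) of unmatched peaks and 53.0% (51.8% to 54.1%) of these intervals. For all antibody 1 peaks, overlaps included, the share was 83.0% (82.4% to 83.6%). Of the unmatched peaks, 1730 (42.4%, 40.9% to 43.9%) lay farther away. In the 50 kb to either side, 42.5% (40.9% to 44.0%) of unmatched peaks had no RNA polymerase II peak, against 28.7% (26.7% to 30.8%) of peaks in antibody 2 peaks only. The mean number of RNA polymerase II peaks in that window was 4.19 for unmatched peaks, 4.80 for peaks in antibody 2 peaks only and 10.8 for peaks in RNA polymerase II peaks only. The medians were 1, 2 and 6 in the same order. Counts of the last class include the overlapping RNA polymerase II peak that defines it, so they are higher in part by the rule. Of the unmatched peaks, 1317 (32.3%) were more than 50 kb from both RNA polymerase II and any other antibody 1 peak, and 55.7% (53.0% to 58.4%) of these were found against input.

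**Figure D3:**
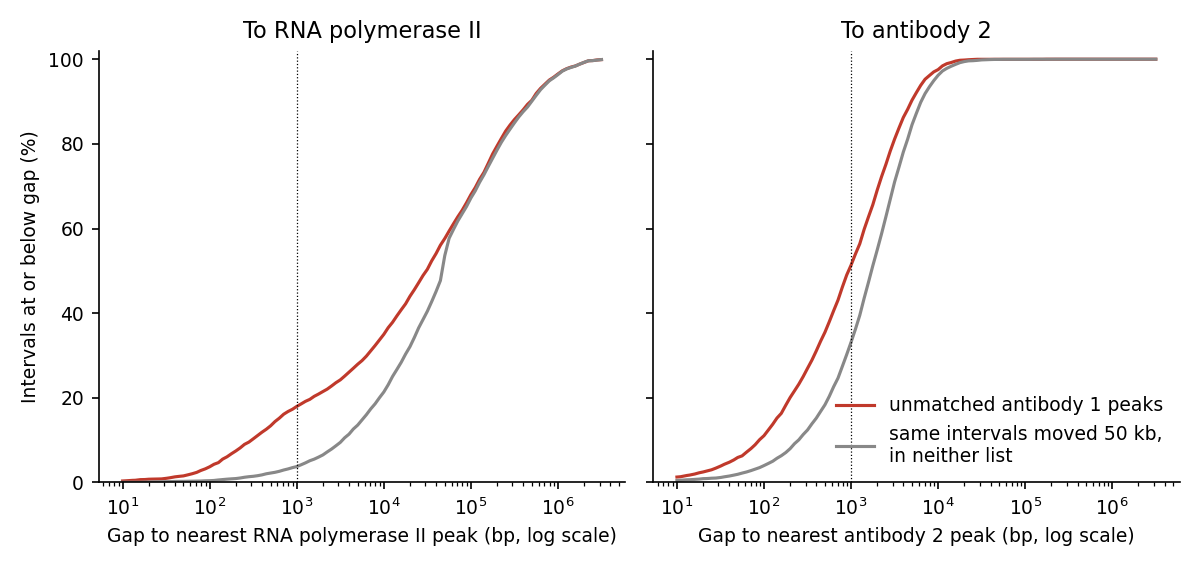
Cumulative share (%) of intervals by gap to the nearest RNA polymerase II peak (left) or antibody 2 peak (right), in bp on a log axis, for the 4081 unmatched antibody 1 peaks and for the same intervals moved by 50 kb to either side that avoid both lists (7528); the dotted line marks 1000 bp. At 1000 bp the unmatched peaks reach 18.0% and the moved intervals 3.75% for RNA polymerase II, and 51.3% and 33.1% for antibody 2; the curve of the moved intervals on the left has a step near 50 kb, the distance of the move.

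Unmatched peaks close to RNA polymerase II differed from the rest of the class in width and in the calls against input. The 733 peaks within 1000 bp had a median width of 149 bp and 25.9% (22.8% to 29.3%) at the minimum width. The 1730 peaks beyond 50 kb had a median of 123 bp and 53.9% (51.5% to 56.2%) at the minimum. Of those within 1000 bp, 74.1% (70.7% to 77.2%) were found against input, compared with 56.7% (52.9% to 60.4%) at 1001 to 10000 bp, 55.6% (52.4% to 58.9%) at 10001 to 50000 bp and 57.1% (54.7% to 59.4%) beyond. Restricted to peaks of 123 bp, the shares were 56.8% (49.5% to 64.0%) within 1000 bp, 42.5% (36.9% to 48.3%) at 1001 to 10000 bp, 44.0% (39.4% to 48.7%) at 10001 to 50000 bp and 46.6% (43.3% to 49.8%) beyond. For peaks of 124 to 199 bp they were 74.1% (69.4% to 78.4%), 62.9% (57.3% to 68.3%), 62.1% (56.9% to 67.0%) and 66.2% (62.5% to 69.7%) in the same order. At both widths the interval within 1000 bp stood apart from those of the middle distances and just met that beyond 50 kb. At 200 bp or more the shares were 94.4% (89.7% to 97.4%) within 1000 bp and 86.3% (79.0% to 91.8%) beyond 50 kb, and all 4 intervals met.

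Antibody 2 peaks lay within 10 kb of 97.5% of unmatched peaks and of 96.2% of the moved intervals. The median gap from an unmatched peak to antibody 2 was 940 bp, against 1716 bp for the moved intervals. Within 1000 bp the share was 51.3% (49.8% to 52.9%) of unmatched peaks and 33.1% (32.1% to 34.2%) of moved intervals; over all antibody 1 peaks, overlaps included, it was 78.3%. Peaks in RNA polymerase II peaks only, which also avoid antibody 2, had 68.9% (67.2% to 70.6%). Gaps under 100 bp were 2.81 times as frequent in unmatched peaks as in moved intervals, gaps of 100 to 299 bp 1.87 times and gaps of 300 to 999 bp 1.19 times. RNA polymerase II had the larger ratio at each of these gaps, but over a lower share of moved intervals. Under 100 bp that share was 0.412%, against 3.92% with antibody 2. Unmatched peaks themselves had such a gap to antibody 2 in 11.0% of cases and to RNA polymerase II in 3.68%. Ratios over such unequal shares do not rank how closely unmatched peaks lay to either list.

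Some unmatched peaks had both neighbours: 573 (14.0%) had RNA polymerase II and antibody 2 within 1000 bp, and 77.0% (73.3% to 80.4%) of them were found against input. Their median width was 152 bp. At the other end, 1826 peaks (44.7%, 43.2% to 46.3%) had neither within 1000 bp, with a median width of 123 bp and 53.2% (50.9% to 55.5%) found against input. Width differs between these sets, and their shares were not compared at equal width. Over all unmatched peaks the share found was 59.7%. Beyond 10 kb from both lists lay 87 peaks (2.13%).

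The edge of the rule fell within a continuous range of gaps. Of the unmatched peaks, 7 abutted a peak of another list with a gap of 0 bp, 66 lay within 10 bp and 564 within 100 bp. On the other side, 78 matched peaks shared at most 10 bp with either other list. Examples just inside were peaks on chromosome 1 (237379666 to 237379788), abutting antibody 2, chromosome 10 (124713799 to 124714122), abutting RNA polymerase II, and chromosome 11 (34380555 to 34380767), abutting antibody 2. Called against input, both antibody 2 and RNA polymerase II had a peak overlapping the one on chromosome 10. Just outside, peaks on chromosome 12 (112036105 to 112036427), chromosome 16 (57634410 to 57634584) and chromosome 19 (44455328 to 44455479) shared 1 bp with antibody 2.

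Of the 5 peaks farthest from both other lists, 3 were not found against input, as were 1644 of all 4081 unmatched peaks. Of the 87 peaks beyond 10 kb from both lists, 56.3% (45.3% to 66.9%) were found. That interval held the 59.7% of all unmatched peaks. The farthest, on chromosome 10 at 46528227 to 46528349, was 123 bp wide, 163150 bp from antibody 2 and 305432 bp from RNA polymerase II. It was among the 3 not found, as were those on chromosome 10 at 67421386 to 67421547 and at 26954743 to 26954917, whose gaps to antibody 2 were 23275 bp and 22296 bp. The other 2 formed a pair on chromosome 18, at 57136164 to 57136337 and 57138251 to 57138423, 1913 bp apart. Both lay in a single peak of 6063 bp called against input (57133953 to 57140015) and also overlapped antibody 2 and RNA polymerase II called against input.

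Unmatched peaks seldom lay within 10 kb of each other. Of the 4081, 442 (10.8%, 9.89% to 11.8%) had another unmatched peak at such a distance. A neighbour of the same class within 10 kb was present for 21.8% (20.3% to 23.3%) of peaks in RNA polymerase II peaks only, 27.9% (25.9% to 29.9%) of the less numerous peaks in antibody 2 peaks only and 35.2% (33.8% to 36.7%) of peaks in both. The median gap to the closest peak of the same class was 140043 bp for unmatched peaks, 88883 bp for peaks in RNA polymerase II peaks only, 150922 bp for peaks in antibody 2 peaks only and 50161 bp for peaks in both. Counting any antibody 1 peak as a neighbour, the share was 28.4% (27.0% to 29.8%) for unmatched peaks and 55.2% (54.2% to 56.2%) for matched peaks, with 47.1% over all antibody 1 peaks. Within 1000 bp, 14.0% (12.9% to 15.1%) of unmatched peaks had a matched antibody 1 peak and 4.21% (3.62% to 4.88%) another unmatched peak.

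The 571 unmatched peaks within 1000 bp of a matched antibody 1 peak had a median width of 156 bp, and 79.2% (75.6% to 82.4%) were found against input. The share was 78.9% (74.5% to 82.9%) of the 389 that also had RNA polymerase II within 1000 bp and 79.7% (73.1% to 85.3%) of the 182 that did not, and these intervals met. Where the closest antibody 1 peak was within 10 kb, it was unmatched in 27.3% (24.7% to 29.9%) of 1159 cases. It was unmatched for 14.5% (13.5% to 15.4%) of the 5200 matched peaks with such a neighbour. Over all 6359 antibody 1 peaks with one, it was unmatched in 16.8% (15.9% to 17.7%). Unmatched peaks made up 30.2% of the whole list. Among peaks in antibody 2 peaks only, the closest peak was unmatched in 24.8% (22.4% to 27.4%) of 1168 cases, an interval that met that of the unmatched peaks. For unmatched peaks, the closest peak otherwise lay in peaks of both other antibodies (30.7%), in antibody 2 peaks only (27.8%) or in RNA polymerase II peaks only (14.2%). An antibody 1 neighbour within 10 kb went with a higher share found against input at each width tried, although the intervals met at 123 bp. The shares were 50.3% (45.0% to 55.6%) with and 45.4% (42.9% to 47.9%) without a neighbour at 123 bp, 74.3% (70.5% to 77.8%) with and 62.6% (59.7% to 65.4%) without at 124 to 199 bp, and 94.6% (90.8% to 97.2%) with and 85.2% (80.0% to 89.5%) without at 200 bp or more.

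Joined at gaps of up to 10 kb, unmatched peaks formed 186 pairs, 18 groups of 3 and 4 groups of 4, and no group was larger. The tightest group of 4 lay on chromosome 18 within 1159 bp (8706262 to 8707420), as peaks of 123 bp, 255 bp, 209 bp and 123 bp. It held no peak of antibody 2 or RNA polymerase II against IgG, the closest RNA polymerase II peak was 480 bp from its edge, and the last of its peaks abutted an antibody 2 peak. The first 3 of its peaks were found against input, and the closest matched antibody 1 peak was 96691 bp away. A group on chromosome 2 (63275617 to 63282762) ran between 5 matched antibody 1 peaks, 7 antibody 2 peaks and 1 RNA polymerase II peak, and all 4 of its members were found against input. Its member at 63278144 to 63278273 also overlapped an RNA polymerase II peak called against input. Groups on chromosome 16 (67188658 to 67198763) and chromosome 6 (10413319 to 10423756) each enclosed 1 matched antibody 1 peak and 7 antibody 2 peaks, with 3 and 4 of their 4 members found against input. The chromosome 16 group also enclosed 2 RNA polymerase II peaks. The tightest group of 3, on chromosome 5 (87985530 to 87987008), had peaks of 135 bp, 148 bp and 148 bp, all found against input. It lay 5838 bp from RNA polymerase II, 1816 bp from antibody 2 and 14336 bp from a matched antibody 1 peak. The medians of these gaps over all unmatched peaks were 30721 bp, 940 bp and 73468 bp. As a reference for the members found, the share against input was 59.7% over all unmatched peaks. It was 70.8% (68.0% to 73.4%) for those with another antibody 1 peak within 10 kb.

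Density was counted per Mb from the first to the last peak of any list on a chromosome, which was 35.2 Mb for chromosome 22. By this measure, the 3 chromosomes densest in unmatched peaks were also the 3 densest in matched peaks. The order over full chromosome lengths was not computed. Chromosome 19, which is rich in genes, had 4.04 unmatched and 10.8 matched peaks per Mb, chromosome 22 had 3.50 and 6.17, and chromosome 17 had 2.76 and 6.74. The sparsest were chromosome X, with 0.342 unmatched and 1.29 matched peaks per Mb, chromosome 2 with 0.917 and 2.56, and chromosome 5 with 0.952 and 2.52. The densest and sparsest of 23 chromosomes differed 11.8-fold for unmatched and 8.37-fold for matched peaks. At least 1 unmatched peak lay in 1765 of the 2902 bins of 1 Mb that held a peak of any list (60.8%). At least 1 of the 9418 matched antibody 1 peaks lay in 1909 bins. Of the unmatched peaks, 526 (12.9%) lay in bins without a matched antibody 1 peak, and the reverse share was not computed. Bins with 10 or more unmatched peaks numbered 17. The fullest bin, named after its value was seen, was on chromosome 9 at 136000001 to 137000000, with 15 unmatched peaks (11 found against input), 11 matched antibody 1 peaks and 45 RNA polymerase II peaks. Next, also named after the values were seen, 8 of 14 were found on chromosome 16 (1000001 to 2000000). The number was 3 of 12 on chromosome 19 (45000001 to 46000000). On chromosome 17 it was 8 of 11 at 77000001 to 78000000 and at 46000001 to 47000000. Over all unmatched peaks the share found was 59.7%.

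**Figure D4:**
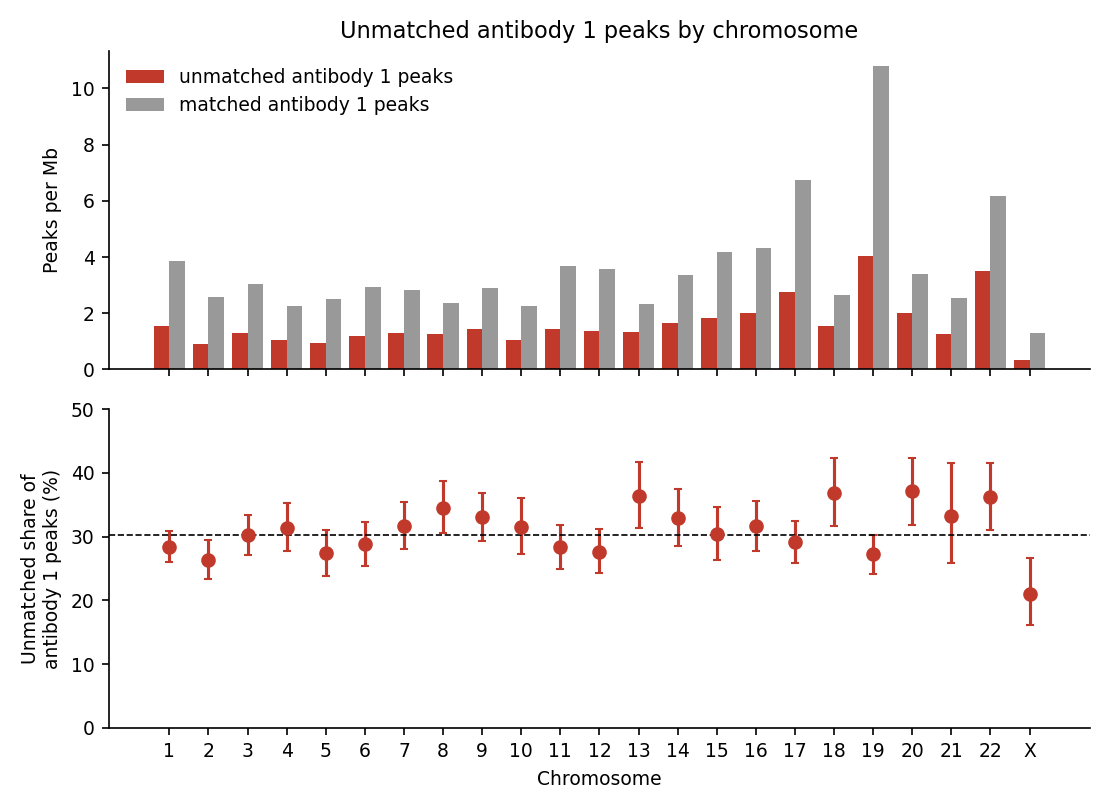
Unmatched and matched antibody 1 peaks per Mb (top, bars) and the unmatched share of antibody 1 peaks (bottom, %, with exact 95% intervals over peaks) for chromosomes 1 to 22 and X; the dashed line marks the 30.2% of the whole list. Chromosome 19 has the highest density of both kinds, and the unmatched share is lowest on chromosome X (21.0%) and highest on chromosome 20 (37.1%). Mb are counted from the first to the last peak of any list on a chromosome.

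The unmatched share of antibody 1 peaks was highest on chromosome 20 (37.1%, 31.9% to 42.4%), chromosome 18 (36.9%, 31.7% to 42.4%) and chromosome 13 (36.4%, 31.3% to 41.7%), and lowest on chromosome X (21.0%, 16.1% to 26.6%). The interval lay above the overall share for 5 of 23 chromosomes (8, 13, 18, 20 and 22) and below it for 3 (2, 19 and X). The 52 unmatched peaks of chromosome X also had the highest share found against input, 80.8% (67.5% to 90.4%), and 40.4% (27.0% to 54.9%) of them lay within 1000 bp of RNA polymerase II. Next came chromosome 4, where 75.6% (69.0% to 81.5%) of 197 unmatched peaks were found against input but 13.2% (8.81% to 18.7%) lay within 1000 bp of RNA polymerase II. The lowest shares found were on chromosome 20 (48.4%, 39.4% to 57.5%) and chromosome 22 (48.8%, 39.7% to 58.0%).

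In some stretches the list called against input was so dense that a find there is less telling. A 1 Mb bin was taken as such a block when it held 50 or more antibody 1 peaks called against input and these were 5 or more times as many as those called against IgG, with 1 added to the IgG number. Blocks made up 93 Mb on 9 chromosomes. They held 181 of the 4081 unmatched peaks and 563 of all 13499 antibody 1 peaks (4.17%, 3.84% to 4.52%). Of the 181, 95.6% (91.5% to 98.1%) were found against input, but intervals 50 kb away from these were covered at 21.3%. Outside the blocks 58.1% (56.5% to 59.6%) of 3900 unmatched peaks were found, and intervals 50 kb away at 0.513%. On chromosome 18 the share found was 71.9% (63.0% to 79.7%) of 121 peaks and 32 of the 64 peaks outside blocks (37.2% to 62.8%), and on chromosome 3 it was 65.6% (59.5% to 71.4%) and 53.5% (46.1% to 60.8%). On chromosome 4 it was 75.9% (69.2% to 81.9%) outside blocks, and chromosome X held no unmatched peak within them. The wide peak on chromosome 3 at 89156510 and the pair on chromosome 18 near 57136164 lay inside blocks.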

How the data were processed

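Per the submitters' processing notes, the tools were MACS2 2.0.9, SAMtools and Bowtie 0.12.7 and the build hg19; roles and settings are not stated there. The 6 deposited lists (3 ChIP libraries, each against IgG and input) give the start and end of each peak, and their names a q threshold of 0.1. They hold no score, fold, p-value or read count, so depth is unknown. No source used here states how duplicate reads were handled. Starts were counted from 0 and are printed counted from 1.

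An overlap was at least 1 bp. Gaps run edge to edge. Local reference values come from moving the unmatched peaks by 50 kb in both directions. Each group is 1 library, so no test was run. Computations used Python 3.11.15 with SciPy 1.17.1, pandas 2.3.3, NumPy 2.4.6 and matplotlib 3.10.9. The functions were tested on simulated data (800 of 800 intervals right), and bedtools 2.31.1 gave the same 4081 peaks.

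Named regions are the 5 widest, the 5 farthest from both lists, the 5 fullest groups, 3 on each side of the rule, and the chromosomes with the 3 highest and 3 lowest densities. The members, classes and blocks were chosen with earlier results of these data known. Sequence and gene content were not analysed here.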

Additional observations from a re-analysis of the deposited data

How the results depend on the processing

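These shares left the exact interval of the value in the text, and these counts moved by more than 1.5 times. With all 3 lists against input, the unmatched peaks numbered 23942 of 54038 antibody 1 peaks, a longer list than the 13499 against IgG. Of the 23942, 13668 lay outside the blocks. Against IgG, the number was 1826 when peaks within 1000 bp also counted as matched. The share found against input was 58.1% outside blocks, 89.9% at 200 bp or wider, 46.3% at the minimum width, 53.2% for peaks over 1000 bp from either list, 56.5% for peaks in neither other input list and 1.43% at positions 50 kb away. The share with an unmatched neighbour was 8.09% within 5 kb and 27.9% within 50 kb, and 28.4% had any antibody 1 neighbour. The share within 1000 bp of RNA polymerase II was 23.1% with its list against input, 16.3% between midpoints, 35.5% for peaks of 200 bp or wider and 22.3% for peaks found against input. For antibody 2 it was 47.8% between midpoints, 68.1% for peaks of 200 bp or wider and 56.0% for peaks found against input. A longer or shorter distance, counting any antibody 1 peak as a neighbour and a looser match move these values by construction. For the other differences, those at 200 bp or wider included, the cause was not tested. The other 10 of 29 alternatives kept within these limits, among them 50% coverage (5240 unmatched peaks, 59.2% found against input), other lists against input (3974) and lists of both controls (3760). Of the alternatives, 7 were added after seeing the data: those outside blocks other than for the share found, those limited to peaks found against input, and that limited to peaks in neither other input list. Without scores in the lists, a stricter threshold was not run. No paired analysis was possible because each antibody had 1 library. How many of the 123 bp peaks rest on few reads cannot be read from positions alone.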
